A study of Mus musculus with 40 samples.

Results

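AP-1 and BATF transcription factors were followed through RNA-seq of mouse CD4+ T cells by their gene symbols, Fos, Fosb, Fosl2, Jun, Junb, Jund, Batf, Batf3 and Atf3, and all 9 were found among the 21950 genes of the table. The 24 libraries form 8 groups of 3. Resting and activated Tconvs, which are conventional CD4+ T cells, and resting and activated tTregs, the thymus-derived regulatory T cells that the labels call nTreg, were sorted from spleens of C57BL/6 mice aged 2 to 4 months that carry a Foxp3 reporter. iTregs, regulatory T cells made in culture, were induced for 4 days from naive CD4+ T cells of 6-week-old reporter mice with antibodies to CD3 and CD28, TGF-β and IL-2, sorted on the reporter, and rested for 1 day with IL-2. They were taken resting, after restimulation through CD3 and CD28, and after restimulation with an inhibitor of the ORAI calcium channel (ORAIinh in the labels, CM-4620 in the study's text) or with cyclosporin A (CsA), a calcineurin inhibitor. That the inhibitor groups were restimulated comes from the study's account of its experiments and not from the labels, which also give the CsA libraries the cell type Treg in place of iTreg. How long cells had been stimulated before RNA was taken is not given in the sources used here. Every group carries the Foxp3 reporter allele, and iTregs were selected on it, so they stand only for the induced cells that expressed Foxp3. Nothing states that the 3 libraries of a group came from separate animals or cultures, and p-values therefore measure the spread between these libraries, which may be technical.

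AP-1 is a dimer of basic leucine zipper (bZIP) proteins. FOS proteins need a JUN partner, JUN proteins can pair with each other or with FOS, ATF and BATF proteins, and BATF proteins pair with JUN and bind beside IRF4 or IRF8. Signals from the T cell receptor induce AP-1 through MAP kinases and activate NFAT through calcium and calcineurin, and NFAT and AP-1 bind side by side at composite elements of cytokine genes. FOS and JUN genes are textbook immediate-early genes, whose RNA peaks early after a stimulus and decays, while BATF is known for its part in effector and tissue regulatory T cells.

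Values are normalized counts, which are reads on a gene divided by a size factor of the library. The libraries held 5256800 to 15685234 reads on genes, and 3 reads, the smallest number taken as detection, were worth 2.12 to 5.45 normalized counts. A gene was called when its adjusted p, from limma with Benjamini-Hochberg adjustment over all genes tested, was below 0.05 and its absolute log2 fold change, on the scale of log2(normalized count + 1), was above 0.5. After a log2 fold change, or a difference of log2 fold changes, ± gives the standard error from limma. After a level or a share it gives the SD. Replicates of tTregs were mostly less alike than those of other groups. Between 2 replicates the variance was 12.7 to 36.3 times what counting gives, against 2.69 to 16.4 times elsewhere. Foxp3 was at 7218 to 7767 in resting tTregs, 1178 to 1338 in resting iTregs and 9.65 to 11.3 in resting Tconvs. Of the markers of other blood cells, S100a8, Ms4a1 and Ppbp were at 0 in all libraries. Cd79a, a B cell marker, and the CD8 T cell markers Cd8a and Cd8b1 were above 0 in all 24. The B cell markers summed to 14.9 to 22.6 normalized counts in resting and 6.29 to 9.49 in activated Tconvs. The CD8 T cell markers summed to 223 to 236 in resting and 110 to 123 in activated Tconvs. Both sums were highest in resting Tconvs. The 5 myeloid markers summed to between 7.79 and 115 normalized counts, highest in activated Tconvs (96.1 to 115). Most of this came from Cd68, a lysosomal protein gene. The 3 NK cell markers were at 0 in the 6 tTreg libraries. They summed to 93.9 to 112 in resting and 29.6 to 38.8 in activated Tconvs, and to 27.4 to 55.4 in resting and 72.8 to 92.7 in restimulated iTregs. The 2 of them that were tested, Klrk1 and Klrb1c, were both called lower in activated than in resting Tconvs (median log2 fold change -2.37) and in resting iTregs than in resting Tconvs (-2.82). Of all genes, 25.7% and 30.8% were called lower in these comparisons. Klrb1c was above 0 in only 5 of the 24 libraries. Its passing of the filter on low values and its calls are therefore not independent. What part such transcripts have in the values of the AP-1 genes was not tested. In bulk RNA, fewer cells that express a gene and less RNA per cell cannot be told apart.

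The upstream sequences of Fos, Jun and Atf3 are shown because these 3 are stimulus-induced genes that gave different results in the comparisons and have windows with few or no exon bases. Each is the 250 bases before the gene's start in RefSeq (GRCm38.p6), 5′ to 3′ on the strand of the gene, with the letters GGAAA (the core that NFAT binds) and TGACG (the first part of the cyclic AMP response element, CRE), or their complements, in capitals. The Fos window is chr12:85473640-85473889 on the plus strand, and those of Jun, chr4:95052223-95052472, and Atf3, chr1:191183334-191183583, are on the minus strand.
Fos: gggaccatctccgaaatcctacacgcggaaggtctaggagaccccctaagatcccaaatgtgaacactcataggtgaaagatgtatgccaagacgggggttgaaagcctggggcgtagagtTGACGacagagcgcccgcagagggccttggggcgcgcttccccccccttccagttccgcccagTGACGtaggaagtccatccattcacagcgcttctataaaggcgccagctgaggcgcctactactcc
Jun: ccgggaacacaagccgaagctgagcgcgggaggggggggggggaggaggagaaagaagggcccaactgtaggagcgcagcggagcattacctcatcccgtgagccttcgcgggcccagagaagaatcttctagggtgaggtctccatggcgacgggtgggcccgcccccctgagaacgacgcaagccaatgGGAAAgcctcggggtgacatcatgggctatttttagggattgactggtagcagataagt
Atf3: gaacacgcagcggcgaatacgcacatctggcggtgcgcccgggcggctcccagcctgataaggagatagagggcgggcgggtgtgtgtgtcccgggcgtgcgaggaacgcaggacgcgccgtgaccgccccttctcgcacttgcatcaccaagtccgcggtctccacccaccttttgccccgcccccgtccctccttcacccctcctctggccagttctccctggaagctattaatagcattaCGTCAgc
The last 7 bases of the Atf3 window lie in an exon of the GENCODE M21 annotation, and those of Fos and Jun hold no exon. In that annotation Atf3 spans 191170296 to 191218039, so its window lies inside the gene and precedes only the RefSeq start. The Jund window, which is not shown, ends at 70697738, before the GENCODE start of Jund at 70698949. Among the windows that were searched and are not shown, all 250 bases of Fosl2, 163 of Batf3, 51 of Batf and 6 of Fosb lie in exons, so these are in part or wholly transcribed sequence. Searched on both strands, the Fos window holds TGACG at 129 and 66 bases before the start and no GGAAA, the Jun window holds GGAAA at 59 bases before the start, and the Atf3 window holds TGACG at 7 bases before the start. Over the same windows of 32851 genes, 55.6% hold GGAAA and 17.8% hold TGACG. The letters GGAAA were also found in the windows of Batf, at 141 and 93 bases before the start, and Batf3, at 213. The letters TGACG were also found in the windows of Fosb, Junb and Batf. None of the 9 windows holds the AP-1 element TGANTCA (6.75% of all windows), the full CRE, in which TCA follows TGACG (1.55%), or a CArG box, the serum response element (1.47%). TGACG is part of the full CRE, so these searches overlap, and a missing match says only that those letters are not in the window.

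Levels can be compared between genes only per length, so normalized counts were divided by the longest annotated transcript. Junb had the highest level per kb in all 8 groups, from 668.6 ± 130 (SD, n = 3) per kb in resting Tconvs to 3278 ± 698 in restimulated iTregs. It made up 48.8% ± 5.1 of the summed level per kb of the 9 genes in activated Tconvs and 60.1% ± 5.4 in restimulated iTregs. Batf came next in 7 groups, with 443.8 ± 67.6 per kb in resting tTregs and 831 ± 65.3 in activated tTregs. Its libraries overlapped those of Junb only in resting tTregs, where 1 library had little Junb. Batf3 took place 2 or 3 in all 4 iTreg groups, at 477.9 ± 60.8 per kb at rest, and overlapped Batf in restimulated iTregs with and without the ORAI inhibitor. In tTregs it was last, at 0. Fos, the founding FOS gene, was among the low members, at 8.27 ± 0.98 per kb in restimulated iTregs. Fosb was at or below 2.74 per kb in the mean of every group. With the union of all exons as the length, Junb stayed first in every group. Just below it Batf3 passed Batf in restimulated iTregs and Jun passed Batf in resting tTregs. Lower down, Fos passed Fosl2 in resting iTregs, activated Tconvs and activated tTregs. Jund passed Atf3 in resting iTregs and Fosl2 in restimulated iTregs.

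**Figure D1:**
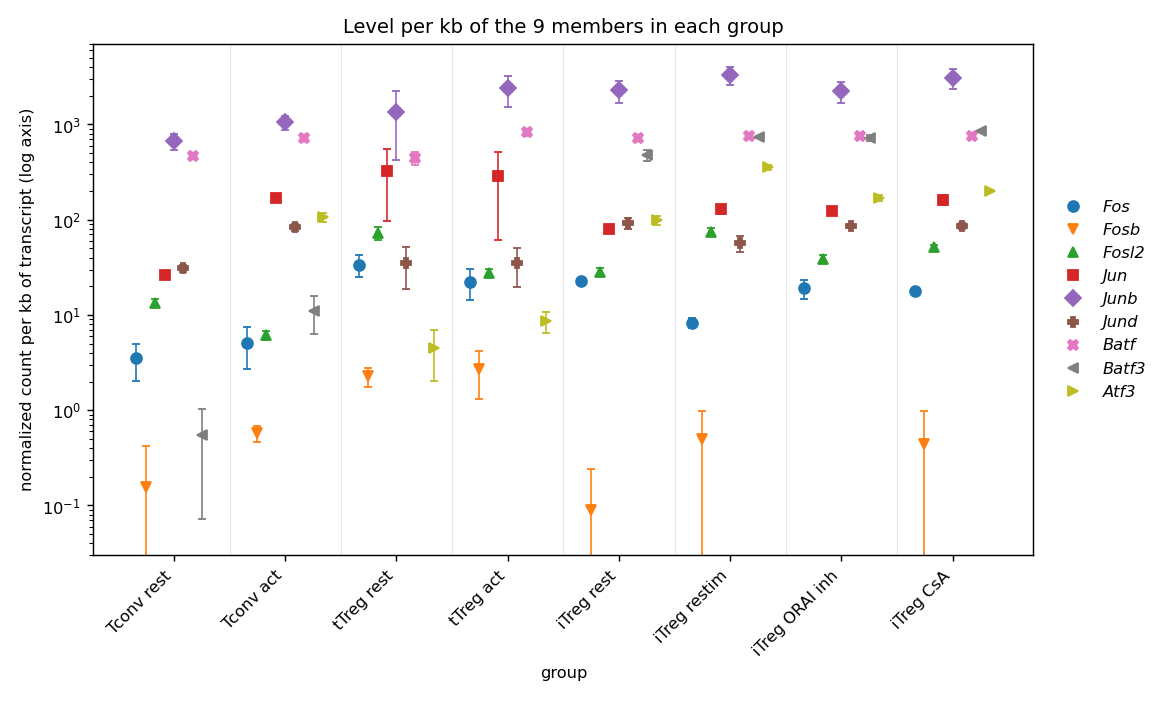
Mean normalized count per kb of the longest transcript (log axis) of the 9 genes in the 8 groups, bars show the SD of 3 libraries and are cut at the axis, and means at 0 are not drawn. Junb stands highest in each group, and Batf3 is near Batf in the iTreg groups and missing from the tTreg groups.

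Fos, whose protein is the classical partner of JUN, was lowest in Tconvs, with 4.11, 10.3 and 7.90 normalized counts at rest and 10.8, 15.5 and 5.66 after activation. Resting iTregs had 51.6, 44.4 and 46.3, and restimulated iTregs 15.1, 19.1 and 18.2. The restimulated libraries lay below all resting ones. With the ORAI inhibitor the 3 libraries had 29.6, 43.1 and 47.4, and with CsA 38.8, 35.9 and 37.6, all above the restimulated libraries, and the highest of them reached the resting range. In tTregs Fos was at 90.7, 55.8 and 66.1 at rest and 29.6, 62.4 and 49.0 after activation, and these groups overlapped.

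Fosl2 encodes FRA2, a FOS protein that lacks the strong activation domain of FOS. It had 207, 178 and 175 normalized counts in resting iTregs and 511, 440.4 and 519 in restimulated iTregs. The inhibitor groups lay in between, with 284, 244 and 238 under the ORAI inhibitor and 317, 346 and 349 under CsA, without overlap with either. In the other cells Fosl2 was lower after activation: tTregs had 391, 536 and 484 at rest and 202, 169 and 173 activated, and Tconvs 92.6, 91.9 and 79.9 at rest and 35.0, 42.3 and 43.2 activated. Fosl2 was highest in restimulated iTregs and resting tTregs, whose libraries overlapped. Fosb, another FOS gene, was highest in tTregs, with 9.07, 6.49 and 10.3 at rest and 16.2, 9.46 and 5.45 activated, and was at 1.80 to 2.59 in activated Tconvs and at or below 4.00 in every iTreg library. Those tTreg values rest on 24 reads at rest and 25 activated, and Fosb is the 1 of the 9 genes that did not pass the filter on low values in any fit.

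Jun, the founding JUN gene, had 91.5, 79.7 and 79.9 normalized counts in resting Tconvs and 506, 553 and 549 in activated Tconvs. It had 259, 242 and 269 in resting iTregs, 448, 371 and 409 after restimulation, 429, 387 and 362 with the ORAI inhibitor and 584, 477 and 493 with CsA. Each stimulated iTreg group lay above the resting one. In tTregs the replicates differed by more than 3-fold, with 526, 719 and 1874 at rest and 1747, 418 and 592 activated, and no order of these groups can be read from them.

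Junb, whose protein is a weaker activator than JUN and a partner of BATF, had 4539, 4938 and 2913 normalized counts in resting and 6357, 6923 and 4507 in restimulated iTregs. Under the ORAI inhibitor it had 4858, 4342 and 2966, and under CsA 6606, 6180.3 and 4073. In each of the 4 iTreg groups and both Tconv groups the library numbered 3 was the lowest. The restimulated libraries overlapped each of the other iTreg groups. Tconvs had 1334, 1356 and 938 at rest and 1948, 2180.3 and 1573 activated, without overlap. In tTregs Junb was at 566, 3763 and 2993 at rest and 6011, 2932 and 4089 activated, and the resting library numbered 1 lay far below the other 2. Jund, the JUN gene known as the most constant one in resting cells, had 47.3, 55.3 and 52.7 in resting and 134, 152 and 129 in activated Tconvs, and 29.0, 84.3 and 63.8 in resting and 84.8, 54.9 and 34.5 in activated tTregs. In iTregs it was at 171, 159 and 129.7 at rest and lower, at 76.5, 95.3 and 111, after restimulation. The 6 inhibitor libraries had between 133 and 152. In the annotation 52.6% of the exon bases of Jund are shared with Gm11175 on the other strand, against 7.52% for Junb (with Prdx2), 7.28% for Jun (with Junos) and 0% for the other 6. The library kit does not mark strand, so reads of these partners cannot be separated there.

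Batf, which pairs with JUN proteins, varied least, 1.87-fold between the lowest and the highest group mean. It had 419.6, 436 and 468 normalized counts in resting Tconvs and 498, 393 and 380.4 in resting tTregs, and more after activation, 643, 675 and 727 and 846, 812 and 725. The 12 iTreg libraries, resting, restimulated or inhibited, lay between 664 and 789. Batf3, best known for its role in a lineage of dendritic cells, was at 0 in all 6 tTreg libraries. It had 0, 0.938 and 0.878 in resting Tconvs, 2 reads in all, and 8.98, 9.49 and 18.4 in activated Tconvs. In iTregs it had 577, 562 and 453 at rest, 847, 835 and 808 after restimulation, 878, 766 and 774 with the ORAI inhibitor and 937, 922 and 968 with CsA. The myeloid markers summed to 11.1 to 11.6 in those resting iTregs and 28.2 to 42.3 after restimulation.

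Atf3, a stress- and stimulus-induced factor that pairs with JUN and often represses, was at 0 in the 3 resting Tconv libraries and at 220.0, 185 and 225 in activated Tconvs. It stayed low in tTregs, with 9.07, 3.89 and 13.7 at rest and 13.5, 16.1 and 21.8 activated. In iTregs it had 174, 195 and 216 at rest and 652, 710.5 and 749 after restimulation. Under the ORAI inhibitor it had 328, 319 and 359.8, and under CsA 395, 403 and 408. Resting, inhibited and restimulated iTregs did not overlap, and Atf3 in restimulated iTregs was the highest of all groups.

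**Figure D2:**
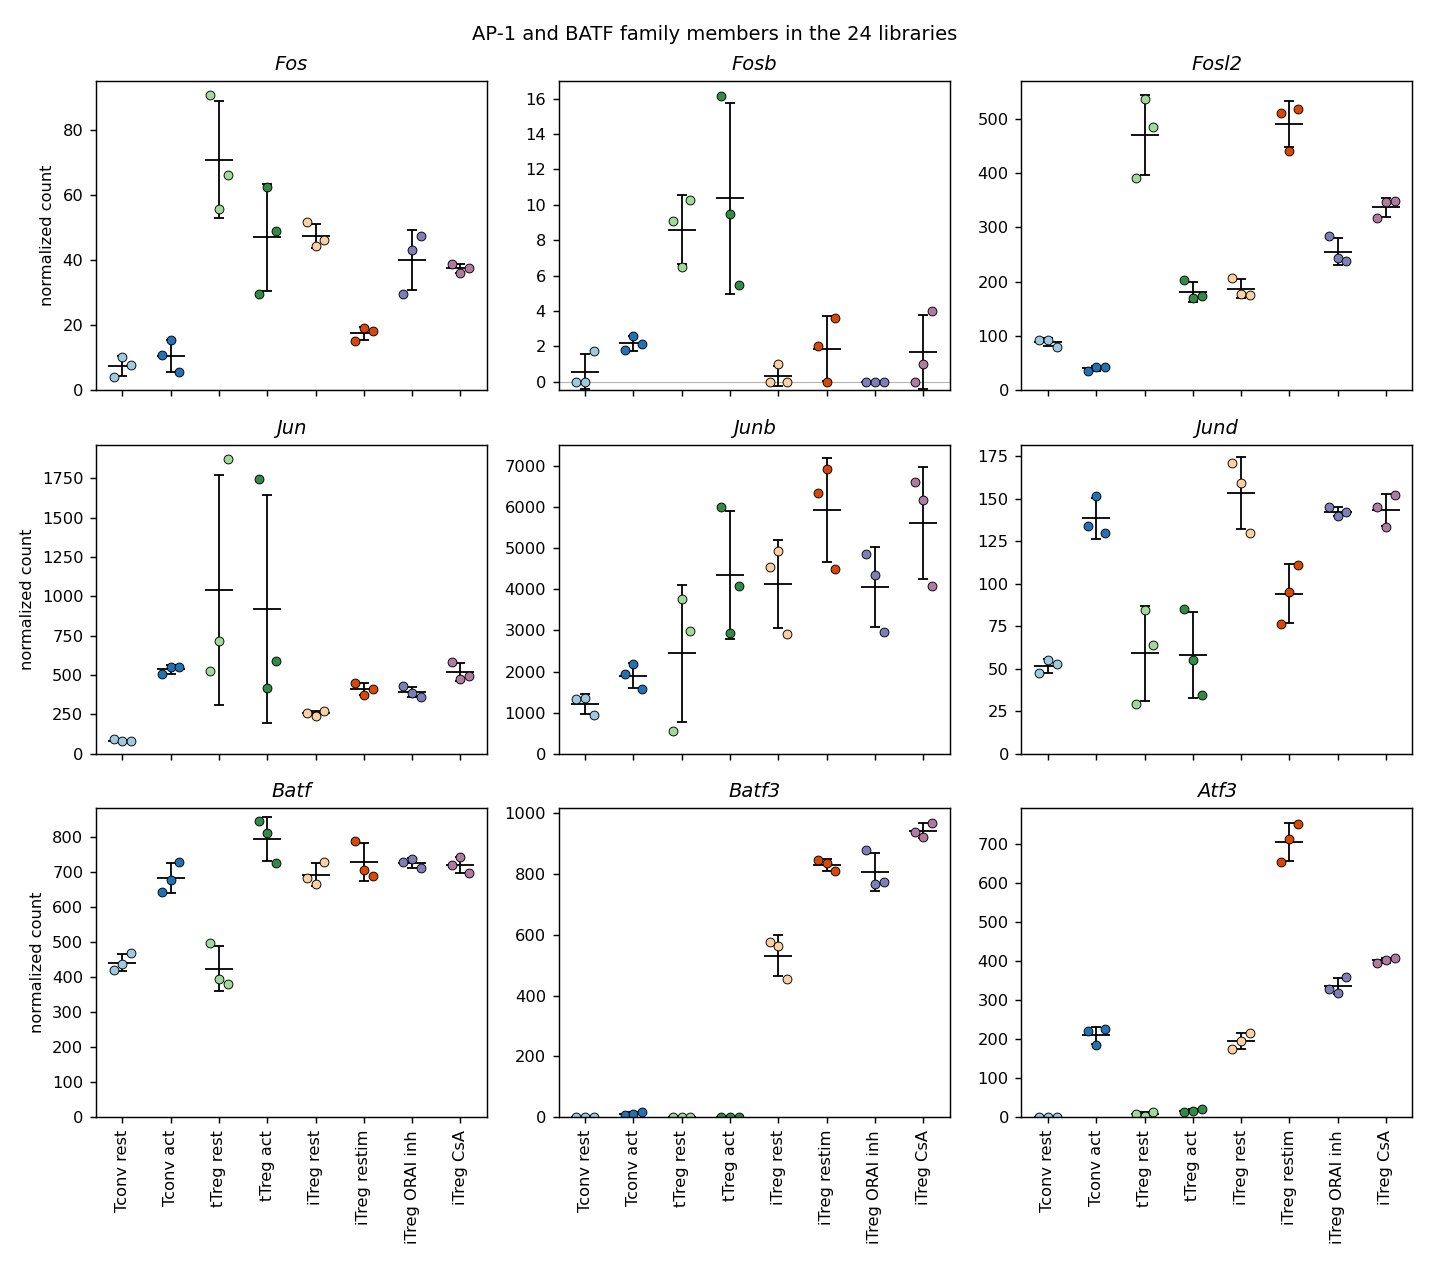
Normalized counts (linear axes, 1 panel for each gene) of the 9 genes in every library, with points for libraries 1 to 3 from left to right, and the mean and SD of each group of 3. Among the iTreg groups Fosl2 and Atf3 peak after restimulation and are lower with either inhibitor, Fos and Jund are lowest after restimulation, Batf3 is found almost only in iTregs, and Jun and Junb spread widely in tTregs.

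The first question was which of these genes respond to activation in Tconvs. Jun, Jund, Batf, Batf3 and Atf3 were higher in activated than in resting Tconvs and Fosl2 was lower. These are 5 and 1 of the 8 genes tested, where 24.5% of all 11495 genes were called higher and 25.7% lower. Jun was 6.34 times its resting level (log2 fold change 2.67 ± 0.44, adjusted p = 0.000101), and Jund 2.64 times (log2 fold change 1.40 ± 0.34, adjusted p = 0.00208). Batf rose by less (log2 fold change 0.63 ± 0.10, adjusted p = 0.000107). Atf3 was at least 73.9-fold higher, taking a floor of 3 reads for each resting library, and Batf3 was 20.3 times higher by reads (47 against 2, exact 95% interval 5.30 to 172, which covers counting error only). Fosl2 fell to 0.461 of its resting level (log2 fold change -1.12 ± 0.14, adjusted p = 8.33e-06). Fos (log2 fold change 0.44 ± 0.37, adjusted p = 0.317) and Junb (log2 fold change 0.66 ± 0.51, adjusted p = 0.281) were not called, though the Junb libraries did not overlap. In a fit of the 2 Tconv groups alone, without tTregs and resting iTregs, Junb was called (0.66, adjusted p = 0.0011).

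In tTregs fewer members were called, 2 higher and 1 lower of 8, where 11.9% of all genes were called higher and 10.0% lower. Batf rose (log2 fold change 0.91 ± 0.10, adjusted p = 2.43e-05), Fosl2 fell (log2 fold change -1.36 ± 0.14, adjusted p = 1.1e-05), and Atf3 was called higher on 25 reads at rest and 39 activated (log2 fold change 0.99 ± 0.32, adjusted p = 0.028). The resting and activated Atf3 libraries overlapped, and the call was lost on leaving out resting replicate 2 (adjusted p = 0.116) or activated replicate 3 (adjusted p = 0.103) and with edgeR (adjusted p = 0.0777) or DESeq2 (adjusted p = 0.0854) on the recovered reads. Jun (log2 fold change -0.24 ± 0.44, adjusted p = 0.715) and Jund (log2 fold change 0.012 ± 0.34, adjusted p = 0.984) were not called, nor was Junb (log2 fold change 1.17 ± 0.51, adjusted p = 0.0905), which was called without resting replicate 2 (1.68, adjusted p = 0.0255) or without resting replicate 3 (1.51, adjusted p = 0.0462).

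The 2 activation responses were then compared in an interaction term. For 4 of 8 genes the response of tTregs was below that of Tconvs and for 0 above, where 17.0% of all genes were called lower and 17.7% higher. The difference in log2 fold change was -2.90 ± 0.63, adjusted p = 0.00204 for Jun, -6.73 ± 0.45, adjusted p = 4.05e-08 for Atf3, -3.04 ± 0.50, adjusted p = 0.000237 for Batf3 and -1.39 ± 0.47, adjusted p = 0.0309 for Jund. The size of the Atf3 and Batf3 values depends on the pseudocount, since a group at 0 enters each, and on the recovered reads Batf3 was not called by edgeR (adjusted p = 1) or DESeq2 (adjusted p = 0.0902). The Jund call was lost (adjusted p from 0.0514 to 0.0808) on leaving out Tconv replicate 1 or 2 activated, 1 or 3 resting, or tTreg replicate 3 activated, 2 or 3 resting. With all libraries it was also lost under quantile normalization (-1.28, adjusted p = 0.0504). Fos was called lower without activated Tconv replicate 3 (-1.41, adjusted p = 0.0399) and not with all libraries (-1.06 ± 0.52, adjusted p = 0.126). The responses of Batf (0.29 ± 0.15, adjusted p = 0.145) and Fosl2 (-0.25 ± 0.20, adjusted p = 0.37) were not shown to differ, with 95% intervals of -0.032 to 0.60 and -0.68 to 0.19.

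The cells already differed at rest. In resting tTregs 4 of 8 genes were higher than in resting Tconvs and 0 lower, where 20.5% of all genes were called higher and 18.2% lower. Fos was 8.79 times as high (log2 fold change 3.14 ± 0.37, adjusted p = 5.36e-06), Fosl2 5.26 times (log2 fold change 2.39 ± 0.14, adjusted p = 3.39e-09) and Jun 10.6 times (log2 fold change 3.40 ± 0.44, adjusted p = 1.45e-05), and Atf3 was also called, from 0 to 8.88 ± 4.89 (SD, n = 3). Batf was not called (log2 fold change -0.067 ± 0.10, adjusted p = 0.623, 95% interval -0.29 to 0.16), and Batf3 was at or under the floor in both. Junb was not called with all libraries (log2 fold change 0.64 ± 0.51, adjusted p = 0.318) and was called without resting tTreg replicate 1 (1.49, adjusted p = 0.000349).

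Resting iTregs carried more RNA of each of the 8 genes tested than resting Tconvs did, 8 called higher and 0 lower, where 32.8% of all genes were called higher and 30.8% lower. Batf3 passed the filter of this fit only through the resting iTreg libraries. Its place among the genes higher in resting iTregs, here and against resting tTregs or activated Tconvs, was thereby set beforehand. Fosb, which did not pass the filter, had means of 0.336 in resting iTregs and 0.585 in resting Tconvs. Atf3 was at least 68.5-fold higher, and Batf3 had 1701 reads against 2, a ratio of 830 (exact 95% interval 229 to 6856). Of the FOS genes, Fos was 6.03 times as high (log2 fold change 2.59 ± 0.37, adjusted p = 1.48e-05) and Fosl2 2.10 times (log2 fold change 1.07 ± 0.14, adjusted p = 7.63e-06). Junb (log2 fold change 1.75 ± 0.51, adjusted p = 0.00625), Jun (log2 fold change 1.61 ± 0.44, adjusted p = 0.00441), Jund (log2 fold change 1.54 ± 0.34, adjusted p = 0.000734) and Batf (log2 fold change 0.65 ± 0.10, adjusted p = 5.19e-05) were higher as well. Set against resting tTregs, 4 of 8 were higher in resting iTregs and 2 lower, where 32.3% and 31.1% of all genes were called. Batf3 was at least 159-fold higher, Atf3 was 21.7 times as high (log2 fold change 4.44 ± 0.32, adjusted p = 9.53e-09), Jund 2.79 times (log2 fold change 1.48 ± 0.34, adjusted p = 0.00103) and Batf 1.64 times (log2 fold change 0.71 ± 0.10, adjusted p = 2.07e-05). Fosl2 (log2 fold change -1.32 ± 0.14, adjusted p = 8.79e-07) and Jun (log2 fold change -1.79 ± 0.44, adjusted p = 0.00202) were lower in iTregs. Junb was not called (log2 fold change 1.12 ± 0.51, adjusted p = 0.0609) and was called without resting iTreg replicate 3 (1.35, adjusted p = 0.0486), resting tTreg replicate 2 (1.63, adjusted p = 0.0111) or resting tTreg replicate 3 (1.46, adjusted p = 0.0278).

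Set against activated Tconvs, resting iTregs had 3 of 8 genes higher and 0 lower, where 22.9% and 18.7% of all genes were called. Quantile normalization, which moved the median of all genes from 0.022 to -0.11, turned the split of calls from 2634 higher and 2150 lower to 2095 and 2835. These were Fos (log2 fold change 2.15 ± 0.37, adjusted p = 0.000183), Fosl2 (log2 fold change 2.19 ± 0.14, adjusted p = 9.51e-09) and Batf3 (log2 fold change 5.38 ± 0.35, adjusted p = 9.5e-09). Atf3 (-0.11, 95% interval -0.80 to 0.58), Batf (0.021, -0.20 to 0.25) and Jund (0.14, -0.58 to 0.86) were not called, and their libraries overlapped. In a fit of these 2 groups alone Jun was called lower (-1.06, adjusted p = 4.78e-06) and Junb higher (1.10, adjusted p = 0.000989) in resting iTregs, which makes 5 of 8.

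Restimulation of iTregs addressed what a second stimulus does to cells already induced. Fosl2, Jun, Batf3 and Atf3 rose and Fos and Jund fell, 4 and 2 of 8, where 6.70% of all 11105 genes tested were called higher and 6.13% lower. Atf3 rose most, to 3.60 times its resting level (log2 fold change 1.85 ± 0.089, adjusted p = 1.97e-09), then Fosl2 to 2.62 times (log2 fold change 1.39 ± 0.10, adjusted p = 1.12e-07). Jun (log2 fold change 0.67 ± 0.10, adjusted p = 0.000137) and Batf3 (log2 fold change 0.65 ± 0.086, adjusted p = 4.67e-05) rose to 1.59 and 1.57 times. Fos fell to 0.380 of its resting level (log2 fold change -1.40 ± 0.20, adjusted p = 0.00011) and Jund to 0.614 (log2 fold change -0.70 ± 0.14, adjusted p = 0.00145). Junb (log2 fold change 0.53 ± 0.23, adjusted p = 0.0944) was not called with all libraries and was called without restimulated replicate 3 (0.72, adjusted p = 0.041), and Batf was not called (log2 fold change 0.071 ± 0.067, adjusted p = 0.467, 95% interval -0.073 to 0.21). With the replicate number as a block, a pairing that the labels do not give, Junb was called higher.

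**Figure D3:**
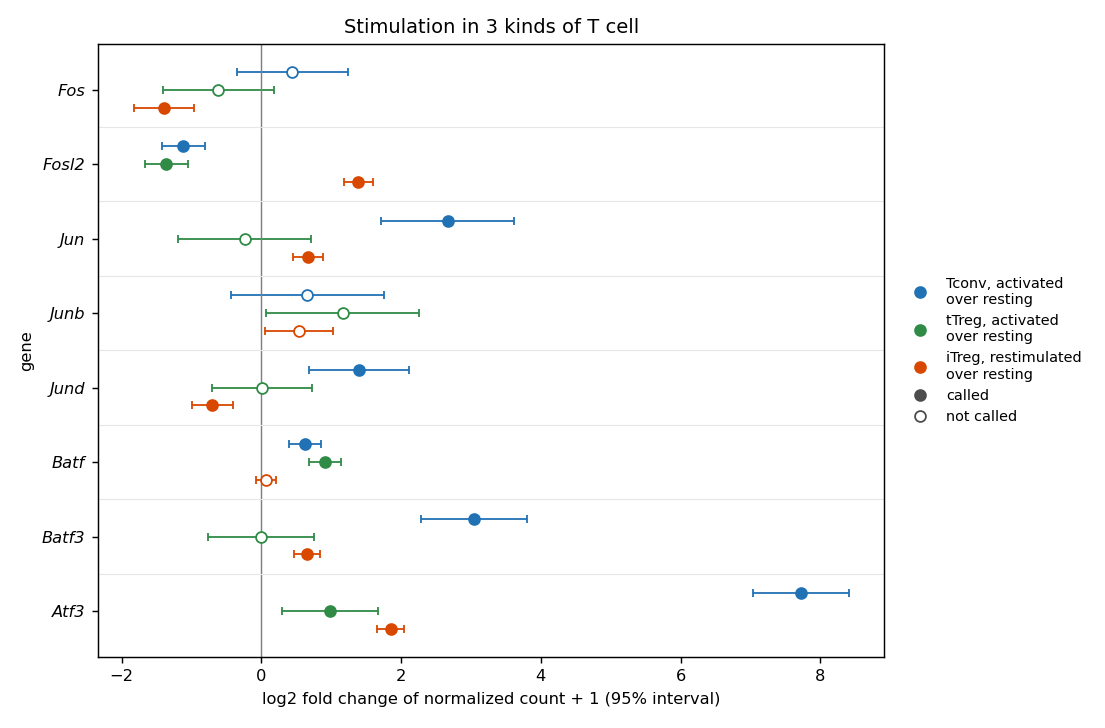
Log2 fold change of normalized count + 1 with its 95% interval for the 8 genes tested, in activated over resting Tconvs, activated over resting tTregs and restimulated over resting iTregs. Filled circles are called and open circles are not, Fosl2 lies left of 0 in Tconvs and tTregs and right of 0 in iTregs, and Atf3 of Tconvs, whose resting libraries are at 0, lies far right at a value that depends on the pseudocount.

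The iTreg and tTreg responses were compared in a fit of all 24 libraries. Of the 8 genes 1 was called higher and 1 lower, where 9.01% of all 11725 genes were called higher and 12.3% lower. Fosl2, which rose in iTregs and fell in tTregs, differed by 2.75 ± 0.18, adjusted p = 5.93e-10. Batf, which rose in tTregs, differed by -0.84 ± 0.13, adjusted p = 4.71e-05. Atf3 was not called (0.86 ± 0.35, adjusted p = 0.075) and was called without activated tTreg replicate 3 (1.04, adjusted p = 0.0405) or resting tTreg replicate 2 (1.30, adjusted p = 0.000489). Jun was not called (0.91 ± 0.53, adjusted p = 0.222) and was called without activated tTreg replicate 1, the library with the high Jun value (1.51, adjusted p = 0.00987).

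The inhibitors asked how much of the restimulated state passes through calcium entry and calcineurin. With the ORAI inhibitor Fos and Jund were higher and Fosl2 and Atf3 lower than in restimulated iTregs, 2 and 2 of 8, where 1.50% of all genes were called higher and 1.79% lower. Atf3 was at 0.478 of its level without inhibitor (log2 fold change -1.07 ± 0.089, adjusted p = 4.72e-06) and Fosl2 at 0.521 (log2 fold change -0.94 ± 0.10, adjusted p = 3.61e-05). Fos was 2.19 times as high (log2 fold change 1.13 ± 0.20, adjusted p = 0.0026) and Jund 1.52 times (log2 fold change 0.61 ± 0.14, adjusted p = 0.0135). Jun (-0.059, 95% interval -0.27 to 0.15), Batf (-0.0018, -0.15 to 0.14) and Batf3 (-0.045, -0.23 to 0.14) were not called. Junb was not called either (log2 fold change -0.55 ± 0.23, adjusted p = 0.177). With the replicate number as a block, a pairing that the labels do not give, Junb was called lower.

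With CsA the calls were 2 higher and 2 lower of 8, where 1.57% of all genes were called higher and 1.35% lower. They were again Fos (log2 fold change 1.07 ± 0.20, adjusted p = 0.00435) and Jund (log2 fold change 0.62 ± 0.14, adjusted p = 0.0129) above and Fosl2 (log2 fold change -0.54 ± 0.10, adjusted p = 0.00382) and Atf3 (log2 fold change -0.80 ± 0.089, adjusted p = 7.09e-05) below. Jun passed the adjusted p but not the fold change threshold (log2 fold change 0.34 ± 0.10, adjusted p = 0.0479), with all 3 CsA libraries above the restimulated ones. Junb (-0.085, 95% interval -0.57 to 0.40), Batf (-0.013, -0.16 to 0.13) and Batf3 (0.18, -0.0014 to 0.37) were not called. Both inhibitor comparisons and the restimulation comparison share the 3 restimulated libraries, so opposite signs between them are not independent. The Jund call was lost under either inhibitor without restimulated replicate 1 (0.47, adjusted p = 0.0575, with the ORAI inhibitor, and 0.48, adjusted p = 0.0559, with CsA). It was also lost without ORAI inhibitor replicate 1 (adjusted p = 0.0517) and without CsA replicate 3 (adjusted p = 0.0502). The Fosl2 call under CsA fell just under the fold change threshold without CsA replicate 1 or restimulated replicate 3 (-0.49, adjusted p = 0.0242 and -0.49, adjusted p = 0.0228).

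**Figure D4:**
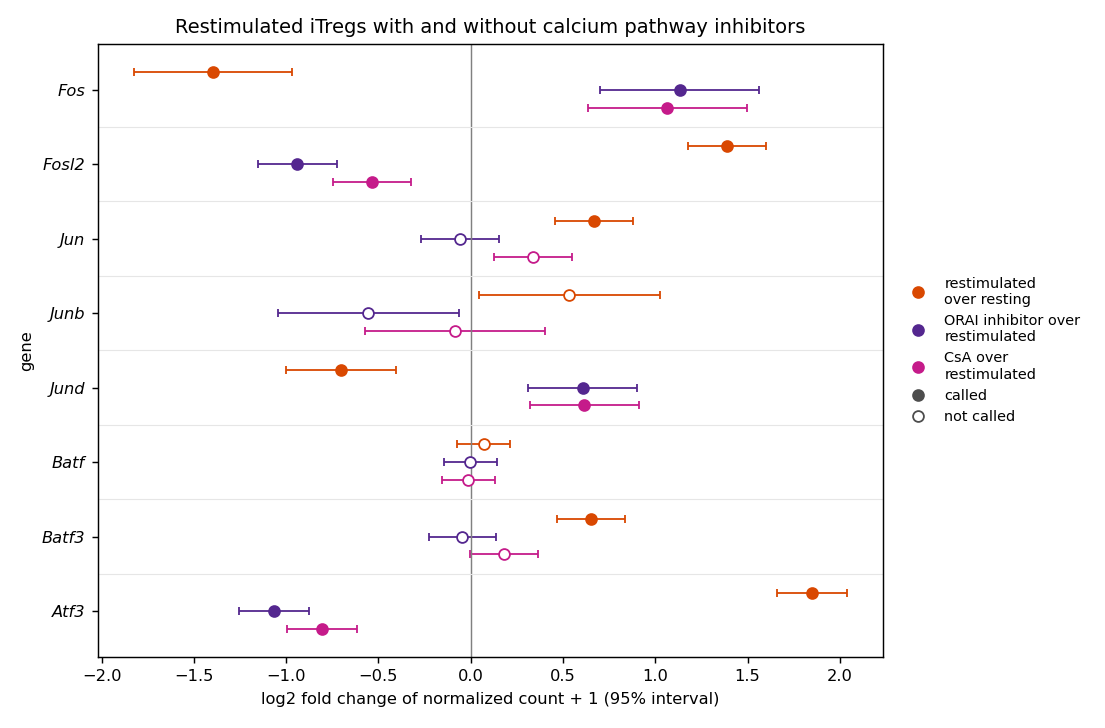
Log2 fold change of normalized count + 1 with its 95% interval for the 8 genes tested, in restimulated over resting iTregs and in either inhibitor over restimulated iTregs, filled where called. Fos and Jund lie left of 0 for restimulation and right of 0 for both inhibitors, Fosl2 and Atf3 the other way, and all 3 comparisons share the restimulated libraries.

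Set against each other, the inhibitors gave 0 calls of 8 with limma, where 0.0991% of all genes were called higher with the ORAI inhibitor and 0.261% lower. On the recovered reads edgeR and DESeq2 also called 0. Fosl2 (log2 fold change -0.40 ± 0.10, adjusted p = 0.0908, 95% interval -0.62 to -0.19), Jun (log2 fold change -0.40 ± 0.10, adjusted p = 0.0964, -0.61 to -0.18), Atf3 (log2 fold change -0.26 ± 0.089, adjusted p = 0.269, -0.45 to -0.07) and Batf3 (log2 fold change -0.23 ± 0.086, adjusted p = 0.317, -0.41 to -0.044) were each lower in value with the ORAI inhibitor, with no overlap of the libraries. The share of all genes whose libraries did not overlap in this comparison was not counted. The intervals for Fos (-0.36 to 0.50) and Jund (-0.31 to 0.29) include 0.

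Restimulated iTregs were also set against the activated cells. Batf3 passed the filter of this fit only through iTreg libraries. Against activated Tconvs 4 of 8 genes were higher and 0 lower, where 24.4% and 20.0% of all genes were called. With quantile normalization the split of calls went from 2856 higher and 2344 lower to 2345 and 3023. These were Fosl2 11.9 times (log2 fold change 3.58 ± 0.12, adjusted p = 5.78e-16), Batf3 65.6 times (log2 fold change 6.04 ± 0.23, adjusted p = 3.28e-15), Atf3 3.34 times (log2 fold change 1.74 ± 0.25, adjusted p = 3.74e-06) and Junb 3.10 times (log2 fold change 1.63 ± 0.45, adjusted p = 0.00393). Fos was not called (log2 fold change 0.75 ± 0.32, adjusted p = 0.0508) and was called higher without activated Tconv replicate 2 (1.05, adjusted p = 0.0124). Jund was not called by limma (log2 fold change -0.56 ± 0.29, adjusted p = 0.0968) and was called lower by edgeR (-0.64, adjusted p = 0.0236) and DESeq2 (-0.55, adjusted p = 0.0337). Against activated tTregs 4 were higher and 2 lower, where 30.5% and 28.8% of all genes were called. Batf3 was at least 202-fold higher, Atf3 39.5 times as high (log2 fold change 5.31 ± 0.25, adjusted p = 5.41e-14) and Fosl2 2.69 times (log2 fold change 1.43 ± 0.12, adjusted p = 1.44e-09). Fos was at 0.399 of the tTreg level (log2 fold change -1.32 ± 0.32, adjusted p = 0.00103). The calls of Jun (log2 fold change -0.89 ± 0.37, adjusted p = 0.0385) and Jund (log2 fold change 0.76 ± 0.29, adjusted p = 0.0214) rest on overlapping libraries. The Jun call was lost without activated tTreg replicate 1 (-0.29, adjusted p = 0.409) or any 1 of the restimulated libraries (adjusted p = 0.0542 without replicate 1, adjusted p = 0.0952 without replicate 2 and adjusted p = 0.0722 without replicate 3), and the Jund call without activated tTreg replicate 3 (0.44, adjusted p = 0.174) or restimulated replicate 3 (0.64, adjusted p = 0.0846).

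Partners of AP-1 at composite elements were described from a list of 5. As a background to this list and those below, 6.70% of all genes were called higher and 6.13% lower on restimulation. The shares were 24.5% and 25.7% in Tconv activation and 11.9% and 10.0% in tTreg activation. With the ORAI inhibitor they were 1.50% and 1.79%, and with CsA 1.57% and 1.35%. Medians over all genes were -0.013 on restimulation, -0.040 in Tconv and 0 in tTreg activation. Irf4, which binds with BATF and JUN, had 28.8, 33.8 and 37.7 normalized counts in resting and 4186, 4235 and 4507 in activated Tconvs, and 2861, 3220.3 and 3661 in resting and 5893, 5634 and 5622 in restimulated iTregs. It had 4100.0, 4256 and 4186 with the ORAI inhibitor and 3997, 3738 and 3836 with CsA, between the resting and restimulated levels and above the resting ones. On restimulation Irf4 (log2 fold change 0.82 ± 0.071, adjusted p = 7.94e-07) and Irf8 (log2 fold change 0.74 ± 0.18, adjusted p = 0.00621) were called higher, 2 of 5, and 0 of 5 lower, with a list median of 0.0072 against -0.013 over all genes. Nfatc1, Nfatc2 and Nfatc3, the calcineurin-dependent partners, were not called there. In Tconv activation Irf4 (log2 fold change 6.98 ± 0.16, adjusted p = 1.25e-13) and Irf8 (log2 fold change 6.95 ± 0.27, adjusted p = 2.6e-11) were called higher and Nfatc1 (log2 fold change -0.67 ± 0.084, adjusted p = 6.52e-06) and Nfatc3 (log2 fold change -1.28 ± 0.083, adjusted p = 5.21e-09) lower, with a list median of -0.19 against -0.040 over all genes. In tTreg activation 2 of the 5 were called higher, Irf4 (log2 fold change 0.84 ± 0.16, adjusted p = 0.00118) and Irf8 (log2 fold change 1.36 ± 0.27, adjusted p = 0.00174), and 0 lower, with a list median of -0.26 against 0. Under the ORAI inhibitor 1 of 5 was called, Irf8 lower (log2 fold change -0.66 ± 0.18, adjusted p = 0.0351), and under CsA 1 of 5, Irf4 lower (log2 fold change -0.57 ± 0.071, adjusted p = 0.000228). Irf4 was not called with the ORAI inhibitor, though all its libraries there lay below the restimulated ones. Between the inhibitors 0 of 5 were called.

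Of 14 other bZIP factors that pair with AP-1 proteins or compete for their sites, 11 passed the filter. On restimulation of iTregs 2 were called higher and 1 lower (list median 0.15, against -0.013 over all genes). Crem, a cyclic AMP response gene, rose (log2 fold change 1.48 ± 0.071, adjusted p = 1.74e-09), as did Maf (log2 fold change 0.81 ± 0.08, adjusted p = 3.1e-06), a bZIP factor of regulatory and helper cells, and Atf4, a stress response factor, fell (log2 fold change -0.60 ± 0.056, adjusted p = 1.77e-06). Crem had 821, 833 and 980.3 in resting iTregs, 2531, 2357 and 2470.3 restimulated, 1331, 1480.4 and 1415 with the ORAI inhibitor and 1452, 1474 and 1389.8 with CsA. It was called lower with either (-0.80 ± 0.071, adjusted p = 6.73e-06, and -0.77 ± 0.071, adjusted p = 1.43e-05). It was the 1 of the 11 called lower with each inhibitor, and 1 was called higher, Ddit3 with CsA (log2 fold change 0.56 ± 0.11, adjusted p = 0.00623). With the ORAI inhibitor against CsA 0 of the 11 were called higher and 1 lower, where 0.0991% and 0.261% of all genes were called. The list medians were -0.10 with the ORAI inhibitor and 0.15 with CsA, against 0.0084 and -0.0031 over all genes. In Tconv activation 0 were called higher and 6 lower (list median -0.59, against -0.040), led by Bach1 (log2 fold change -1.99 ± 0.14, adjusted p = 1.99e-08), a repressor at AP-1-like sites, and Atf7 (log2 fold change -1.19 ± 0.10, adjusted p = 1.05e-07). In tTreg activation 0 were called higher and 3 lower (list median -0.12, against 0), namely Maff (log2 fold change -1.17 ± 0.39, adjusted p = 0.0327), Crem (log2 fold change -1.06 ± 0.18, adjusted p = 0.000597) and Bach2 (log2 fold change -0.72 ± 0.092, adjusted p = 5.33e-05), a repressor that competes with AP-1 in lymphocytes.

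Of 13 kinases and serum response factors upstream of FOS and JUN, all tested, 1 was called higher and 1 lower on restimulation of iTregs (list median -0.034), Elk3 (log2 fold change 0.52 ± 0.081, adjusted p = 0.000205) and Map2k7 (log2 fold change -0.56 ± 0.15, adjusted p = 0.0123). With either inhibitor 0 of 13 were called by limma (list medians 0.030 and 0.0033). In Tconv activation Srf, the serum response factor, was called higher (log2 fold change 0.60 ± 0.19, adjusted p = 0.0118), and Elk3 (log2 fold change -1.11 ± 0.11, adjusted p = 5.17e-07), Mapk8 (log2 fold change -1.05 ± 0.11, adjusted p = 1.13e-06) and Mapk14 (log2 fold change -0.55 ± 0.14, adjusted p = 0.00324) lower (list median -0.20). Of all genes, 24.5% were called higher and 25.7% lower there. In tTreg activation Map2k1 was called higher (log2 fold change 1.20 ± 0.38, adjusted p = 0.025), and Mapk8 (log2 fold change -0.55 ± 0.11, adjusted p = 0.00181) and Elk4 (log2 fold change -0.52 ± 0.11, adjusted p = 0.0017) lower (list median -0.21).

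Genes known for NFAT and AP-1 composite elements were mostly near the floor. Of 8, 4 passed the filter in the iTreg fit, and 3 of them were called higher on restimulation and 0 lower (list median 1.80). Over all genes 6.70% were called higher and 6.13% lower, with a median of -0.013. Fasl, a death ligand gene, had 32.7, 43.4 and 60.7 in resting and 168, 151 and 173 in restimulated iTregs (log2 fold change 1.87 ± 0.20, adjusted p = 5.83e-06). It was called lower with the ORAI inhibitor (log2 fold change -1.42 ± 0.20, adjusted p = 0.000384) and with CsA (log2 fold change -1.19 ± 0.20, adjusted p = 0.00182). Il4 had 8.43, 10.1 and 11.4 at rest and 27.2, 30.3 and 23.6 restimulated (log2 fold change 1.36 ± 0.22, adjusted p = 0.000287), and was not called with the ORAI inhibitor (33.7, 31.7 and 27.2) or CsA (33.7, 35.9 and 28.0). Csf2 was called on 13.1, 11.2 and 10.9 restimulated normalized counts (log2 fold change 1.93 ± 0.49, adjusted p = 0.00774). Those 3 values by themselves meet the filter of 10 in 3 libraries, so the filter and the Csf2 call are not independent. In Tconv activation 2 of the 8 were tested, and 1 was called higher and 1 lower (list median 0.51). Ifng was higher (log2 fold change 2.67 ± 0.71, adjusted p = 0.00425), and Fasl, with 239.6, 183 and 217 at rest and 63.8, 67.3 and 67.9 activated, was lower (log2 fold change -1.66 ± 0.38, adjusted p = 0.00157). In tTreg activation 0 were called higher and 1 lower (list median -1.09), again Fasl (log2 fold change -1.10 ± 0.38, adjusted p = 0.0382). In iTregs Ifng was not called on restimulation (log2 fold change 1.74 ± 0.67, adjusted p = 0.0652) and was called lower with CsA (log2 fold change -2.73 ± 0.67, adjusted p = 0.0219). Il2 did not pass the filter and had 4.03 to 4.54 in restimulated iTregs and 2.69 to 3.54 in activated Tconvs.

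Immediate-early genes outside the family, which also move with handling of cells, were read beside the members. On restimulation of iTregs 1 of 7 was called, Nr4a1 higher (log2 fold change 0.73 ± 0.20, adjusted p = 0.0134), and 0 lower (list median -0.27). Nr4a1 had 43.2, 35.3 and 41.7 in resting iTregs, 66.5, 71.7 and 62.7 restimulated, 46.9, 25.5 and 43.9 with the ORAI inhibitor and 63.4, 60.6 and 64.0 with CsA. It was called lower with the ORAI inhibitor (log2 fold change -0.82 ± 0.20, adjusted p = 0.0212) and not with CsA (log2 fold change -0.093 ± 0.20, adjusted p = 0.84). Between the inhibitors 0 of 7 were called. In Tconv activation 1 of 7 was called higher, Nr4a1 (log2 fold change 2.50 ± 0.14, adjusted p = 1.4e-09), and 5 lower (list median -0.92), among them Btg2 (log2 fold change -2.50 ± 0.11, adjusted p = 9.39e-11) and Ppp1r15a (log2 fold change -1.44 ± 0.15, adjusted p = 9.02e-07). Over all genes 24.5% were called higher and 25.7% lower there, with a median of -0.040. In tTreg activation 0 were called higher and 3 lower (list median -0.53), Zfp36 (log2 fold change -0.87 ± 0.13, adjusted p = 0.000167), Dusp1 (log2 fold change -0.83 ± 0.27, adjusted p = 0.0268) and Btg2 (log2 fold change -0.58 ± 0.11, adjusted p = 0.00126). What part handling has in the values of Fos and Jun was not tested.

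The genes most like each member were found by Pearson's r of log2(normalized count + 1) over the 24 libraries, as a description in which libraries share groups and depth. Atf3 was closest to Irf4 (r = 0.99), Lap3 (0.99) and Nampt (0.98), and Batf3 to Ift57 (0.99), Ctsw (0.99) and Dyrk3 (0.99). Fosl2 was closest to Csrp2 (0.94), Apc2 (0.93) and Crem (0.93), and Batf to Acadvl (0.96), Dnal4 (0.92) and Cth (0.91). The values were lower for Fos (Fah, 0.92), Junb (Pik3r2, 0.92), Jun (Trib1, 0.90) and Jund (Ykt6, 0.90). Among the members themselves the highest r was that of Atf3 and Batf3 (0.85), then Batf3 and Jund (0.76).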

How the data were processed

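Members and gene lists were chosen with earlier results of these data known. RNA was amplified by a modified SMART-seq2, which counts no molecules and keeps no strand. The authors trimmed reads with cutadapt 1.18, aligned them with STAR 2.5.3 to GRCm38, and counted genes with RSEM 1.3.0 and GENCODE M23, and they used DESeq2 1.26. The values the authors deposited are a normalized signal: gene counts over 1 size factor per library. Of the values, 100% were whole multiples of 1 read (tolerance 0.001). On these reads edgeR called 5798 genes in Tconv activation and 1423 on iTreg restimulation, where limma called 5774 and 1425.

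Genes with at least 10 in at least 3 libraries of a fit were tested with limma 3.58.1 (R 4.3.3, trend, pseudocount 1): 11495 genes in 15 Tconv, tTreg and resting iTreg libraries, 11105 in 12 iTreg libraries and 11725 in 24. Alternatives were edgeR 4.0.16 and DESeq2 1.42.0 on the recovered reads, a replicate block, array weights, other scalings, pseudocounts (0.1, 5), filters (none, 100) and thresholds, and leaving out each library. Intervals are 95% and floors cover counting error only. The chosen thresholds are those of the study's methods. The search for TGACG was added after seeing the data. Other genes are named by size of change among those called on lists. ATAC-seq and CUT&Tag samples were not analysed here.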

Additional observations from a re-analysis of the deposited data

Results flagged for a closer look

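Between Tconvs and tTregs the activation response differed, by the interaction term of limma, for 4 genes. The response of tTregs minus that of Tconvs was -2.90 on the log2 scale for Jun, -1.39 for Jund, -3.04 for Batf3 and -6.73 for Atf3. The Jun values of tTregs spread widely and Batf3 and Atf3 each involve a group at 0. Between iTreg restimulation and tTreg activation the response differed for 2 genes, with iTregs minus tTregs at 2.75 for Fosl2 and -0.84 for Batf. Groups of 3 were not tested for single libraries that stand apart.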

How the results depend on the processing

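The labels do not say that a replicate number marks a shared animal, culture or day, and not every same-numbered pair of libraries deviated together, so the numbers were not taken as pairs. Over the 12 iTreg libraries 10 of 18 same-numbered pairs had a correlation of deviations over 0.1 (mean 0.15, lowest -0.039), and 10 of 12 libraries were closest to their own number, a hint from the data and not from the design. Pairs of iTreg libraries with different numbers had a mean of -0.075. Over the 15 libraries of the fit with resting and activated cells the mean was -0.0070 for same-numbered pairs and 0.0034 for the others. With the replicate number as a block 7 members in place of 6 were called on restimulation and 5 in place of 4 with the ORAI inhibitor, the added one being Junb (0.53, adjusted p = 2.85e-06, and -0.55, adjusted p = 1.03e-05, by limma). For restimulated iTregs against activated Tconvs 5 in place of 4 were called, with Fos added (0.75, adjusted p = 0.049). The numbers of members called kept within 1.5 times under rescaled libraries, quantile normalization, other filters, a pseudocount of 0.1, edgeR and DESeq2. They moved to 5 for resting iTregs against activated Tconvs in a fit of those groups alone and with array weights, and to 4 for the iTreg minus tTreg response with a pseudocount of 5. Requiring a log2 fold change above 1 left 1 in tTreg activation, 3 on restimulation, 2 with the ORAI inhibitor, 1 with CsA and 1 in the iTreg minus tTreg response. Signs turned only for differences that were not called. Under quantile normalization these were Jund in tTreg activation (-0.019) and in resting tTregs against resting Tconvs (-0.15), and Batf in resting iTregs against activated Tconvs (-0.020), with the ORAI inhibitor (0.0094) and with CsA (0.0024). With array weights they were Jund in tTreg activation (-0.31), Batf with the ORAI inhibitor (0.0094) and CsA (0.0018), and Fos (-0.00064) and Jund (0.0059) between the inhibitors. Leaving out 1 library at a time gave both signs for 14 uncalled differences. These ran, in tTreg activation, from -0.84 to 0.30 for Jun and -0.42 to 0.33 for Jund, and in resting tTregs against resting Tconvs from -0.26 to 0.50 for Jund and -0.19 to 0.0057 for Batf. Junb ran from -0.35 to 1.02 in the tTreg minus Tconv response and from -1.14 to 0.22 in the iTreg minus tTreg response, and Batf from -0.020 to 0.068 in resting iTregs against activated Tconvs. With the ORAI inhibitor Jun ran from -0.13 to 0.0089 and Batf from -0.042 to 0.058, with CsA Junb from -0.27 to 0.13 and Batf from -0.053 to 0.046, and between the inhibitors Fos from -0.065 to 0.27, Jund from -0.061 to 0.032 and Batf from -0.011 to 0.033. The cause was not tested. Depth limits Fosb, and Batf3 and Atf3 in groups at 0. With no filter, Fosb was called in 4 comparisons on at most 16.2 normalized counts in any library.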
